A study of Fundulus heteroclitus with 53 samples.

Results

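The gene miox encodes inositol oxygenase, and its RNA was followed across 30 livers of Atlantic killifish (Fundulus heteroclitus), a small estuarine fish of the North American Atlantic coast. It was 1 of 34089 genes in the count tables and was taken by its symbol. It was picked for this description because it uses oxygen and because its level was much lower in severely hypoxic fish from New Bedford Harbor than in the controls of the same origin. The miox values of that contrast, and every comparison of miox that uses those fish, are therefore given as a description with no test. Other genes were tested in that contrast. No other symbol in the tables resembled miox.

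Inositol oxygenase is an iron enzyme that inserts molecular oxygen into myo-inositol, a cyclic sugar alcohol, and opens its ring to give glucuronate. This is the committed step by which animal cells break inositol down, and the glucuronate is passed on through xylulose into the pentose phosphate pathway. In mammals the enzyme is best known from the kidney, where its RNA is abundant. Inositol itself is also the head group of phosphatidylinositol and the core of the inositol phosphates that carry signals in cells.

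The fish were juveniles of 6 months, bred in the laboratory by in vitro fertilization from adults caught at New Bedford Harbor (NBH, a polluted site whose killifish are resistant to dioxin-like pollutants) or at Scorton Creek (SC, a site whose killifish are sensitive to them). They spent 6 h at 10% oxygen (mild hypoxia), at 5% oxygen (severe hypoxia) or in ambient oxygen (control), and the liver was then taken for RNA sequencing. The 6 groups were NBH severe hypoxia, NBH mild hypoxia, NBH control, SC severe hypoxia, SC mild hypoxia and SC control, each of 5 fish with 1 library per fish. The parents of each population were few, so a p-value here covers the spread among the fish at hand, while that among families is unknown.

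Total counts ran from 4955114 to 23849931 per library, and the smallest library was NBH severe hypoxia replicate 5. Median totals of the NBH groups were 8179471 in controls, 16942104 in mild hypoxia and 17879044 in severe hypoxia, and those of the SC groups were 12755707, 7393074 and 18906362 in the same order of oxygen levels. The 21 liver markers found in the tables (apolipoproteins, fibrinogens, clotting and complement factors) summed to between 107156 and 212710 counts per 1000000 (CPM) in every library, which fits the labelled tissue. On TMM-scaled totals their medians were 183059 CPM in NBH controls, 153354 CPM in NBH mild hypoxia and 137552 CPM in NBH severe hypoxia. In SC fish they were 165613 CPM in controls, 130341 CPM in mild hypoxia and 119210 CPM in severe hypoxia. NBH mild hypoxia replicate 3 was close to the controls in miox and in several other genes named here, so the miox values of that group are also given without it.

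In the reference annotation (assembly MU-UCD_Fhet_4.1), miox (gene ID 105933946) lies on chromosome 2 from 20098193 to 20103528 and spans 5336 bases. The nearest annotated gene before it, lmf2a, ends 127 bases away and does not overlap it. The libraries were strand-specific, but the strand setting of the counting is not given in the sources used here.

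In controls, miox was an abundant liver RNA. It was measured at 1336, 425, 1189, 939.5 and 237.8 CPM in the 5 NBH controls, with a mean of 825 ± 477 CPM (SD, n = 5). The 5 SC controls had 2034, 433, 1252, 911 and 556 CPM, with a mean of 1037 ± 643 CPM (SD, n = 5). The ranges of the 2 control groups overlapped, with 15 of the 25 pairs of fish lower in NBH. The log2 fold change of NBH controls over SC controls was -0.33 (SE 0.95).

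In NBH livers under mild hypoxia, the 5 fish had 6.48, 17.5, 1068, 356 and 106 CPM, a mean of 311 ± 446 CPM (SD, n = 5), or 122 ± 163 CPM without replicate 3 (SD, n = 4). The fish of this group lay far apart, with the highest 165 times the lowest. Replicates 3 and 4 were within the range of the NBH controls, and the other 3 fish were below the lowest of them. The log2 fold change of mild hypoxia over control was -1.41 (SE 0.96), and without replicate 3 it was -2.76. The difference of mean log2 CPM, which gives single high fish less weight, was -2.99. The SE rests on a spread shared by all 6 groups, while the SD of log2 CPM was 3.02 here and 1.07 in NBH controls.

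Under severe hypoxia, the 5 NBH fish had 6.21, 45.3, 2.55, 8.21 and 16.3 CPM, a mean of 15.7 ± 17.3 CPM (SD, n = 5), against 825 ± 477 CPM in NBH controls. Each of the 5 was below every NBH control, and the highest of them, at 45.3 CPM, was well under the lowest control, at 237.8 CPM. The gene was chosen by these values. In bulk tissue, fewer cells of a type and less RNA per cell cannot be told apart. Over all genes tested, 9.01% had no overlap between the 5 NBH severe hypoxia fish and the 5 NBH controls, and 14% passed the test of that contrast, and nothing is read from miox being among them. The fitted log2 fold change was -5.72 (SE 1.16), or 52.7-fold lower in severe hypoxia. This group holds a fish that the study removed as an outlier without naming it. All 5 are kept here, and with any 1 fish of either group left out the log2 fold change lay between -6.67 and -5.44. Ordered from the most negative log2 fold change, miox was the fourth of 13609 genes, after LOC105925278 (-9.50), afp4 (-6.91) and LOC105926884 (-6.57), and before LOC118565669 (-5.65) and col10a1b (-5.58).

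The counts behind the low values were small but well above 0. The 5 NBH severe hypoxia libraries held 126, 710, 57, 164 and 92 miox reads, against 11445, 2342, 8010, 5857 and 3043 in NBH controls. The lowest, 57 reads in replicate 3, has an exact Poisson interval of 43.2 to 73.9 reads (95%, counting error only). When all libraries were thinned to the total of the smallest, the log2 fold change of NBH severe hypoxia over NBH control was -5.68.

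In SC livers under mild hypoxia, miox was measured at 94.1, 34.1, 13.4, 134 and 479 CPM, a mean of 151 ± 190 CPM (SD, n = 5), against 1037 ± 643 CPM in SC controls. Of these 5 fish, 4 were below every SC control, with a mean of 68.8 ± 55.2 CPM (SD, n = 4). Replicate 5 lay within the control range, so the groups overlapped. The log2 fold change was -2.78 (SE 1.01, 95% interval -4.85 to -0.71), or 6.87-fold lower in mild hypoxia. The p of edgeR's quasi-likelihood test, adjusted by the Benjamini-Hochberg method over 13609 genes, was 0.0644, which missed the threshold of 0.05. Of all genes tested, 13.6% passed it (7.25% raised and 6.36% lowered).

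That call sat near the threshold and moved with the setting. Its adjusted p ranged from 0.0198 to 0.137 over the alternatives, with 0.0235 in DESeq2, 0.0374 when only the SC mild hypoxia and SC control fish were fitted, and 0.0198 without SC mild hypoxia replicate 5. A two-sided exact permutation test on the mean log2 CPM of the 10 fish gave p = 0.0159 (0.0635 after adjustment over the 4 tests of miox), where 0.00794 is the smallest p the design allows.

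In SC livers under severe hypoxia, the 5 fish had 360, 128, 139, 80.3 and 688 CPM, a mean of 279 ± 253 CPM (SD, n = 5), against 1037 ± 643 CPM in SC controls. Again 4 of the 5 fish were below every control, and replicate 5 lay within their range. On the log2 scale the change was -1.89 (SE 0.98, 95% interval -3.89 to 0.10), with an adjusted p of 0.145 in edgeR's quasi-likelihood test, in a contrast where 28.7% of all genes passed. The two-sided exact permutation test gave p = 0.0317 (0.0635 after adjustment over the 4 tests). With only the 2 groups in the fit the adjusted p was 0.0324, and over all alternatives it ranged from 0.0324 to 0.288.

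Between the oxygen levels, the mean of miox was not lower at the lower one in SC fish. SC severe hypoxia averaged 279 ± 253 CPM and SC mild hypoxia 151 ± 190 CPM (SD, n = 5 each), with overlapping ranges. Severe over mild hypoxia gave a log2 fold change of 0.89 (SE 0.95, 95% interval -1.06 to 2.84), and neither edgeR's quasi-likelihood test (adjusted p = 0.779, in a contrast where 2.90% of all genes passed) nor the exact permutation test (p = 0.222, 0.296 adjusted) passed. In NBH fish the same step ran the other way, with 15.7 ± 17.3 CPM in severe hypoxia and 311 ± 446 CPM in mild hypoxia. The fitted log2 fold change was -4.31 (SE 1.09), or -2.96 without NBH mild hypoxia replicate 3, and the difference of mean log2 CPM was -3.09. The difference between the populations in this step was not tested, because the NBH severe hypoxia fish chose the gene.

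**Figure D1:**
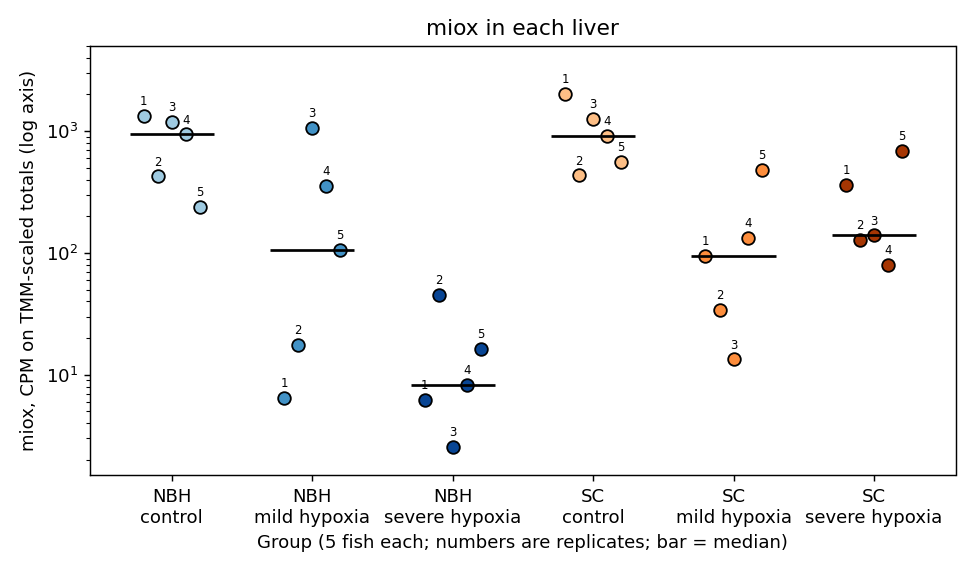
Level of miox in each of the 30 livers, in CPM on a log axis, with the 5 fish of each group numbered by replicate and a bar at the group median. The NBH severe hypoxia fish lay between 2.55 and 45.3 CPM, all below the lowest NBH control at 237.8 CPM, while 4 of the 5 fish of each SC hypoxia group lay below the lowest SC control at 433 CPM.

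Between the populations, mild hypoxia gave no separation. NBH fish averaged 311 ± 446 CPM and SC fish 151 ± 190 CPM (SD, n = 5 each), and in 12 of the 25 pairs of fish the NBH one was lower. The fitted log2 fold change of NBH over SC was 1.04 (SE 0.96, 95% interval -0.91 to 3.0). Its adjusted p in edgeR's quasi-likelihood test was 0.678, where 1.25% of all genes passed. The exact permutation test, on a difference of mean log2 CPM of only 0.15, gave p = 0.913 (0.913 adjusted). The sign of the fitted change rested on NBH mild hypoxia replicate 3, and without that fish the log2 fold change was -0.31. Without SC mild hypoxia replicate 5, the highest of its group, it was 2.17 (adjusted p = 0.354 in edgeR's quasi-likelihood test). In severe hypoxia the NBH fish, at 15.7 ± 17.3 CPM, were all below the SC fish, at 279 ± 253 CPM, with a log2 fold change of -4.15 (SE 1.08). The share of all genes with no overlap between those 2 groups was 5.31%.

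**Figure D2:**
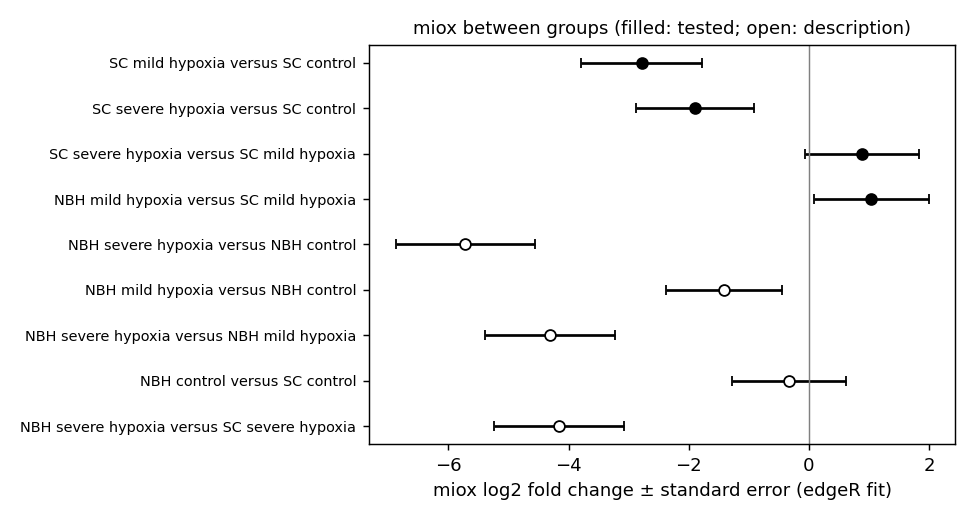
Log2 fold change of miox in 9 comparisons of groups, the first-named group over the second, with bars of 1 standard error from the edgeR fit. Filled points are comparisons that were tested, none of which passed the threshold, and open points are descriptions, of which NBH severe hypoxia over NBH control was the lowest at -5.72.

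Ordered by median, the groups ran from NBH control (939.5 CPM) and SC control (911 CPM) through SC severe hypoxia (139 CPM), NBH mild hypoxia (106 CPM) and SC mild hypoxia (94.1 CPM) to NBH severe hypoxia (8.21 CPM). Every neighbouring pair in this order overlapped in range. The spread within groups was also wide for a gene at this level. The pooled SD of log2 CPM within groups was 1.77 for miox, against a median of 0.33 over the 4397 genes that averaged at least 10 CPM, and 1.07% of those genes had a higher one. The spread was smallest in the controls, with an SD of log2 CPM of 1.07 in NBH and 0.89 in SC, and largest in NBH mild hypoxia, at 3.02.

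Markers of other tissues were read beside miox. Of the 26 kidney markers in the tables, slc34a1b, pax2a, pax2b, emx1 and slc12a3 had no read in any library. At most, lrp2a and cubn were at 1.07 and 1.16 CPM. In every library hnf1ba had reads, at 6.65 to 21.6 CPM. So did slc20a1a, wt1a and wt1b, at up to 4.46, 4.83 and 2.99 CPM. The sum was mostly slc22a6l, an organic anion carrier, so it says little of the other markers. The kidney sum had medians of 400 CPM in NBH mild hypoxia and 235 CPM in NBH severe hypoxia, against 229 CPM in NBH controls, and of 535 CPM in SC mild hypoxia and 471 CPM in SC severe hypoxia, against 275 CPM in SC controls. The sum of the 9 intestine markers was almost wholly fabp2, with 167979 reads over all libraries against 921 for fabp6, the next. It thus says little of the other intestine markers. This sum was lower in the hypoxia groups, with medians of 357 CPM in NBH mild and 493.4 CPM in NBH severe hypoxia, against 818 CPM in NBH controls. In SC fish its medians were 205 CPM in mild hypoxia and 266 CPM in severe hypoxia, against 388 CPM in controls. The 9 pancreas markers had medians of 275 CPM in NBH mild hypoxia and 126 CPM in NBH severe hypoxia, against 216 CPM in NBH controls, and of 314 CPM in SC mild hypoxia and 161 CPM in SC severe hypoxia, against 314 CPM in SC controls. On TMM-scaled totals the 9 blood and spleen markers had lower medians in all 4 hypoxia groups. They were 35.9 CPM in NBH mild hypoxia and 26.2 CPM in NBH severe hypoxia, against 48.6 CPM in NBH controls. In SC fish they were 31.4 CPM in mild hypoxia and 18.3 CPM in severe hypoxia, against 57.0 CPM in controls. The part of these lists in the result was not tested, nor was that of the liver markers, whose sum on TMM-scaled totals was also lower under hypoxia. In NBH fish that lower liver sum depended on the scaling and was not seen on plain totals. The lower blood and spleen sum of NBH mild hypoxia also depended on it, and on plain totals its median was close to that of NBH controls. The TMM factors were 0.76 to 0.86 in NBH controls, 0.90 to 1.07 in NBH mild hypoxia and 0.98 to 1.16 in NBH severe hypoxia.

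The other genes of inositol metabolism were read from a list of 57 symbols. Of these, 29 were in the tables and 25 were tested. The symbols isyna1 (which makes inositol phosphate from glucose 6-phosphate) and impa1 and impa2 (which free inositol from it) were not found in the tables under those names, and the sodium-coupled inositol carriers slc5a3b and slc5a11 had only 45 and 21 reads over all 30 libraries and were not tested. The proton-coupled inositol carrier slc2a13b was at 11.1 to 26.6 CPM in every fish, with log2 fold changes of -0.02 in NBH mild hypoxia, 0.04 in NBH severe hypoxia, 0.28 in SC mild hypoxia and -0.03 in SC severe hypoxia, none past the test. Nor did cdipt, which joins inositol to lipid to make phosphatidylinositol, pass in any contrast (log2 fold changes of 0.23, 0.14, 0.27 and 0.50 in the same order).

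In NBH fish, 2 of the 25 genes were raised and 4 lowered in mild hypoxia (24%, against 21% of all genes, 11% raised and 10.0% lowered), and 1 was raised and 2 lowered in severe hypoxia (12%, against 14%, 7.45% raised and 6.51% lowered). In SC fish, 2 were raised and 1 lowered in mild hypoxia (12%, against 13.6%, 7.25% raised and 6.36% lowered), and 2 were raised and 5 lowered in severe hypoxia (28%, against 28.7%, 15.2% raised and 13.5% lowered). The share called was thus near that of all genes in each contrast. The median log2 fold changes of the list were -0.02, 0.09, -0.15 and -0.06 in these 4 contrasts, against 0.02, 0.04, 0.00 and 0.01 over all genes. The split depended on the scaling. Without TMM factors, when the median of all genes moved to 0.34, 0.47, 0.28 and 0.38, the raised and lowered genes were 5 and 2 in NBH mild hypoxia, 9 and 0 in NBH severe hypoxia, 5 and 1 in SC mild hypoxia, and 7 and 1 in SC severe hypoxia. Counts also moved with single fish. The SC severe hypoxia count was 3 without SC severe hypoxia replicate 1 or 2 and 4 without its replicate 3 or SC control replicate 3, the NBH mild hypoxia count was 3 without replicate 4 of that group, and the NBH severe hypoxia count was 1 without NBH control replicate 1.

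Several called genes of the list encode kinases that phosphorylate phosphatidylinositol. The type II kinase pi4k2a was at 16.9 to 24.2 CPM in NBH mild hypoxia and 14.5 to 22.9 CPM in NBH severe hypoxia, against 10.6 to 13.8 CPM in NBH controls. Neither hypoxia group overlapped the controls, which was so of 13.6% of all genes under mild and 9.01% under severe hypoxia. In SC fish pi4k2a was at 13.3 to 21.8 CPM in mild hypoxia and 17.9 to 21.2 CPM in severe hypoxia, against 8.96 to 13.3 CPM in controls. It rose in all 4 contrasts in edgeR's quasi-likelihood test, with log2 fold changes of 0.78 (adjusted p = 0.000659), 0.64 (0.0046), 0.65 (0.00365) and 0.75 (0.000429), and passed with any 1 fish left out. Its relative pi4k2b rose in NBH mild hypoxia (0.72, adjusted p = 0.00621) and SC severe hypoxia (0.84, adjusted p = 0.00112), and the type III kinase pi4kb rose in SC mild hypoxia (0.67, adjusted p = 0.00273). The type III kinase pi4kaa went the other way in SC severe hypoxia (-1.0, adjusted p = 0.0495), but passed in 3 of the 10 fits that left out a fish, and without SC control replicate 4 the change was -0.62.

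Others encode kinases that add phosphates to soluble inositol phosphates. The inositol trisphosphate kinase itpkcb was at 8.78, 8.53, 23.3, 5.34 and 7.86 CPM in NBH mild hypoxia, against 29.8, 27.4, 35.6, 26.3 and 24.7 CPM in NBH controls. All 5 hypoxic fish were below the controls, in a contrast where 13.6% of all genes had no overlap. Replicate 3 was the nearest to the controls. The fitted change of itpkcb was -1.42 on the log2 scale (adjusted p = 0.00317 in edgeR's quasi-likelihood test), and -1.91 without that fish. In SC fish it was at 15.2, 23, 13.4, 8.91 and 16.4 CPM in mild hypoxia and 8.71, 8.98, 10.4, 17.8 and 14 CPM in severe hypoxia, against 72.1, 24.1, 38.6, 32.5 and 44.3 CPM in controls. Neither SC hypoxia group overlapped the controls (11.9% of all genes in mild and 18.3% in severe hypoxia did not), and itpkcb fell in both, with log2 fold changes of -1.46 (adjusted p = 0.00333) and -1.82 (adjusted p = 0.000184). In NBH severe hypoxia its log2 fold change was -0.63 (adjusted p = 0.181).

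The inositol polyphosphate multikinase ipmkb fell in NBH mild hypoxia (log2 fold change -1.33, adjusted p = 0.0194 in edgeR's quasi-likelihood test), NBH severe hypoxia (-1.31, adjusted p = 0.0307) and SC severe hypoxia (-1.18, adjusted p = 0.0267), and was at -0.63 in SC mild hypoxia (adjusted p = 0.296). One fish stood above the others in each of these 3 groups, and the call of ipmkb passed in 6, 3 and 3 of the 10 fits that left out a fish. Without NBH mild hypoxia replicate 3 its change in that group was -1.88. The inositol hexakisphosphate kinase ip6k2b fell in SC severe hypoxia (-1.0, adjusted p = 0.0247). Of the phosphatases, minpp1a, which strips highly phosphorylated inositols, fell in NBH severe hypoxia (-0.87, adjusted p = 0.0222), bpnt1 fell in SC severe hypoxia (-0.69, adjusted p = 0.0453) and inpp5b fell in NBH mild hypoxia (-0.56, adjusted p = 0.0237). With 1 fish left out, the calls of ip6k2b, minpp1a, bpnt1 and inpp5b passed in 6, 8, 3 and 7 of 10 fits. The lipid phosphatase inppl1b was called lower in NBH mild hypoxia (-2.80, adjusted p = 0.0473), but NBH control replicate 1 alone carried 9.69 CPM, and without it the log2 fold change was -0.70 (adjusted p = 0.671).

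**Figure D3:**
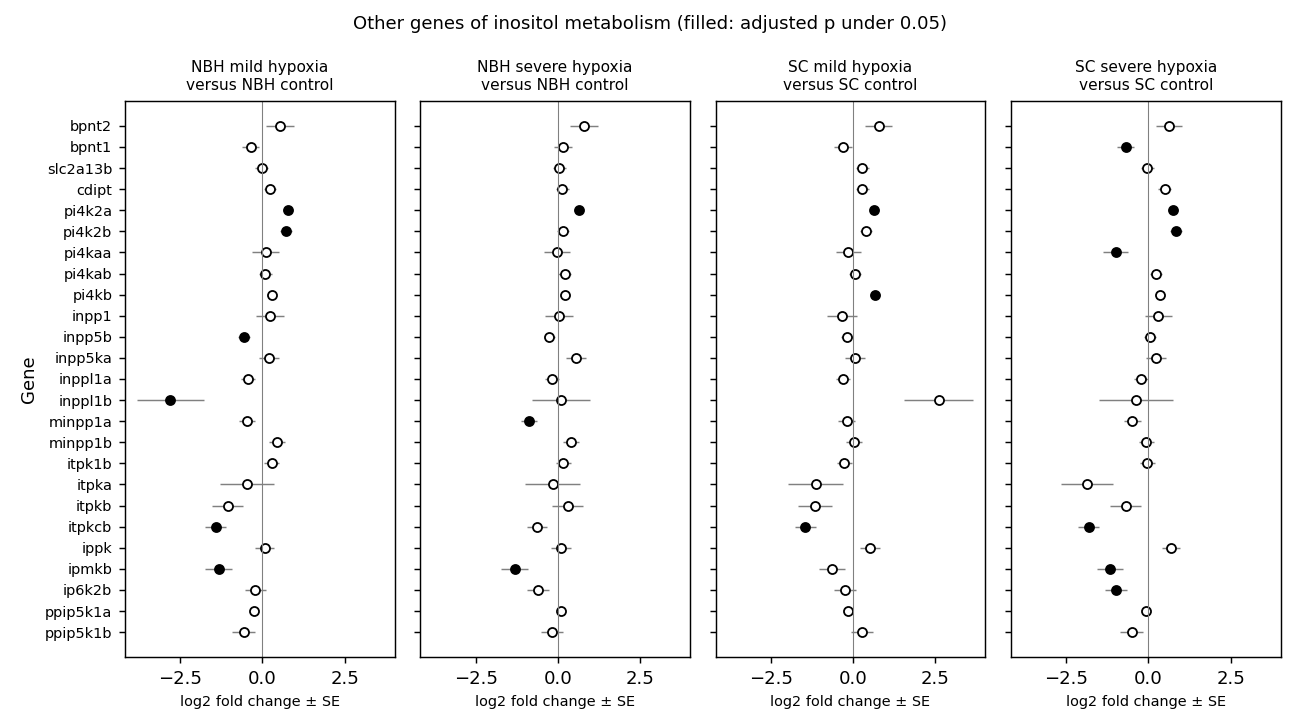
Log2 fold change of the 25 other tested genes of inositol metabolism in the 4 contrasts of hypoxia over control, with bars of 1 standard error and filled points where the adjusted p was under 0.05. The kinase pi4k2a was raised in all 4 panels (0.64 to 0.78), itpkcb lay between -1.82 and -0.63, and slc2a13b stayed within -0.03 and 0.28.

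Genes that handle the product of miox were read from another list, of 28 symbols, all 19 of which found in the tables were tested. In NBH fish, 3 were raised and 3 lowered in mild hypoxia (31.6%, against 21% of all genes) and 2 were raised and 1 lowered in severe hypoxia (15.8%, against 14%). In SC fish, none was raised and 1 lowered in mild hypoxia (5.26%, against 13.6%), and 3 were raised and 2 lowered in severe hypoxia (26.3%, against 28.7%). Leaving out single fish gave 3 to 6, 1 to 5, 0 to 2 and 4 to 8 called genes in these contrasts. Without TMM factors the raised and lowered genes were 6 and 2, 6 and 0, 5 and 0, and 6 and 1.

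Of the enzymes that directly follow glucuronate, 1 passed the test. The aldehyde reductase akr1a1b, which reduces glucuronate, rose in SC severe hypoxia (log2 fold change 0.48, adjusted p = 0.0236 in edgeR's quasi-likelihood test). The next enzymes of the route, cryl1, dcxr and xylb, passed in none of the 4 contrasts. Of ugdh, which makes UDP-glucuronate and is another source of glucuronate, the log2 fold changes lay between 0.09 and 0.27, none past the test. The glucuronidase gusb, which frees glucuronate from conjugates, rose in NBH mild hypoxia (0.91, adjusted p = 0.0101) and passed in 9 of the 10 fits that left out a fish.

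Further down, the pentose phosphate enzymes moved in both directions. The dehydrogenase pgd, of the oxidative branch, rose in NBH mild hypoxia (log2 fold change 0.58, adjusted p = 0.0392 in edgeR's quasi-likelihood test), NBH severe hypoxia (0.60, adjusted p = 0.0456) and SC severe hypoxia (0.86, adjusted p = 0.0022). The endoplasmic reticulum enzyme h6pd, which feeds a pentose phosphate route inside that compartment, fell in all 4 contrasts, with -1.04 in NBH mild hypoxia, -0.70 in NBH severe hypoxia, -0.70 in SC mild hypoxia and -0.96 in SC severe hypoxia (adjusted p = 0.0034, 0.0465, 0.0477 and 0.00399). The isomerase rpia fell in NBH mild hypoxia (-0.82, adjusted p = 0.0289) and SC severe hypoxia (-0.95, adjusted p = 0.00907), and the fructose kinase khk fell in NBH mild hypoxia (-1.10, adjusted p = 0.0121). The NBH severe hypoxia call of h6pd passed in 1 of the 10 fits that left out a fish and that of pgd in 3, the SC mild hypoxia call of h6pd passed in 3, and the NBH mild hypoxia call of rpia in 5.

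Other enzymes that use oxygen at a non-heme iron centre formed a further list, of 46 tested genes. The egln prolyl hydroxylases and kdm histone demethylases, several of which the study reported as changed under hypoxia, were not among them. The shares given are thus not those of the whole class. In NBH fish, 10 were raised and 5 lowered in mild hypoxia (32.6%, against 21% of all genes, 11% raised and 10.0% lowered) and 7 were raised and 1 lowered in severe hypoxia (17.4%, against 14%, 7.45% raised and 6.51% lowered). In SC fish, 4 were raised and 4 lowered in mild hypoxia (17.4%, against 13.6%), and 7 were raised and 6 lowered in severe hypoxia (28.3%, against 28.7%). The list also held etfdh, an iron-sulfur flavoprotein of the electron transfer chain that is no oxygenase, and it is counted here as listed. Without TMM factors the raised and lowered genes were 17 and 3, 16 and 0, 8 and 2, and 15 and 4 in the same order. Leaving out single fish gave 10 to 16, 2 to 9, 5 to 10 and 10 to 15 called genes.

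Called genes of this list thus lay on both sides of 0 in each contrast under the scaling used. The ether lipid monooxygenase agmo fell in SC mild hypoxia (log2 fold change -1.42, adjusted p = 0.0325 in edgeR's quasi-likelihood test) and SC severe hypoxia (-2.01, adjusted p = 0.00174), and the sterol desaturase sc5d fell in SC mild hypoxia (-1.28, adjusted p = 0.000448). The collagen lysyl hydroxylase plod2 fell in NBH mild hypoxia (-1.62, adjusted p = 0.0375) and SC severe hypoxia (-1.70, adjusted p = 0.0173), as did adi1, a dioxygenase of methionine salvage, in NBH mild hypoxia (-1.42, adjusted p = 0.00103). On the other side, the phenylalanine hydroxylase pah rose in SC mild hypoxia (1.09, adjusted p = 0.000343) and SC severe hypoxia (1.31, adjusted p = 1.19e-05), and so did the carotenoid oxygenase bco1l (1.23, adjusted p = 0.000707, and 1.60, adjusted p = 1.34e-05). In NBH fish the fatty acid desaturase scdb rose in mild hypoxia (2.29, adjusted p = 0.0374) and severe hypoxia (2.65, adjusted p = 0.0255), faxdc2 rose in mild hypoxia (1.35, adjusted p = 0.00131), and bco2l (1.52, adjusted p = 0.0308), ogfod2 (1.39, adjusted p = 0.00424) and the thiol dioxygenase adob (0.97, adjusted p = 0.0332) rose in severe hypoxia. Several of these calls were lost when 1 fish was left out. Of 10 such fits, agmo in SC mild hypoxia, plod2 in NBH mild hypoxia and scdb in NBH mild hypoxia each passed in 3, adob in 5, scdb and bco2l in NBH severe hypoxia in 6, and plod2 in SC severe hypoxia in 9.

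The genes whose level most resembled miox were found by the Pearson correlation of log2 CPM over all 30 fish, among 13608 genes, and are given as a description. The points share the study's groups, so a gene that differs between control and hypoxia can correlate through the group means alone. The nearest was socs2, a suppressor of cytokine and growth hormone signalling, with r = 0.87, followed by kiaa1191 with r = 0.82. The next named genes were rcl1 (0.78), mrps18c (0.77), polr3k (0.76), adh5 (0.75), pa2g4a (0.75), slc25a48 (0.75), rhoub (0.75) and utrn (0.73). Over all genes the 99th percentile of r was 0.64, and 2 genes exceeded 0.8.

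The fish of high miox were largely those of high socs2. In NBH mild hypoxia socs2 was at 6.20, 5.46, 36.4, 5.49 and 4.0 CPM and in NBH severe hypoxia at 4.19, 9.70, 0.986, 2.85 and 6.92 CPM, against 31.3, 27.4, 59.4, 52.3 and 9.77 CPM in NBH controls. Replicate 3 of NBH mild hypoxia was again among the controls, and replicate 3 of NBH severe hypoxia was the lowest of all fish, as it was for miox. In SC fish socs2 was at 18.5, 5.63, 3.78, 25.2 and 14.1 CPM in mild hypoxia and 13.8, 11.5, 9.77, 11.2 and 15 CPM in severe hypoxia, against 69.4, 19.3, 39.6, 33.7 and 49.6 CPM in controls. SC mild hypoxia replicate 3 was the lowest SC fish for both genes.

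After the group means were taken out, so that only differences among fish of a group remained, r was 0.70 for socs2 and 0.72 for kiaa1191. On that measure mpp6b (0.76), dlc1 (0.75) and rnf19b (0.72) stood beside them, and dlc1 had a plain r of only 0.23. Of the 10 named genes (those without a LOC symbol) nearest to miox by Pearson's r, 6 were also among the first 10 named genes by Spearman's rho, 6 without NBH severe hypoxia replicate 5, and 2 after the group means were taken out.

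The named genes most opposed to miox were trip12 (r = -0.83), dicer1 (-0.79), elovl6 (-0.79), scdb (-0.79) and agtpbp1 (-0.78). Of these, elovl6 lengthens fatty acids and scdb puts a double bond into them. Levels of elovl6 were 159, 378, 7.09, 152 and 137 CPM in NBH mild hypoxia and 222, 48.0, 402, 218 and 112 CPM in NBH severe hypoxia, against 3.03, 3.08, 0.891, 1.60 and 18.2 CPM in NBH controls. The one low fish under mild hypoxia was again replicate 3, and the highest control, replicate 5, was the control with the least miox. In SC fish elovl6 was at 14.9, 93.8, 186, 43.8 and 49.5 CPM in mild hypoxia and 66.9, 130, 121, 126 and 99.8 CPM in severe hypoxia, against 4.22, 27.4, 7.32, 13.2 and 6.59 CPM in controls. After the group means were taken out, r was -0.72 for elovl6 and -0.65 for scdb.

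**Figure D4:**
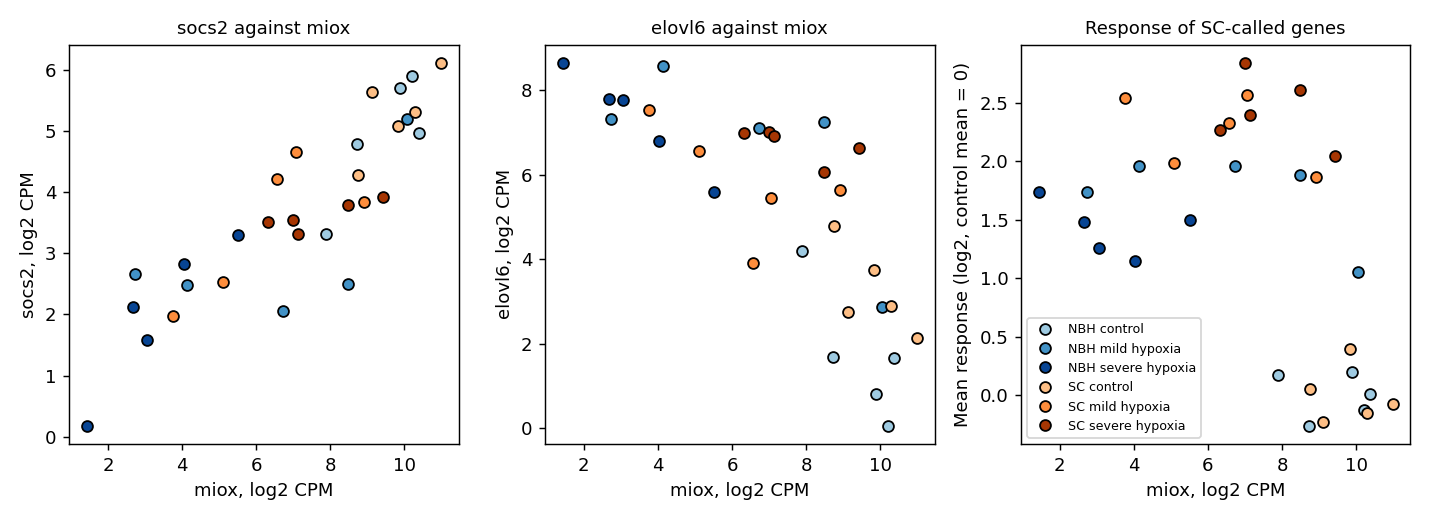
Levels of socs2 (left) and elovl6 (middle) and the mean response of the genes called in both SC contrasts (right) against miox, all on log2 scales, with 1 point per fish coloured by group. Across the 30 fish socs2 rose with miox (r = 0.87) and elovl6 fell with it (r = -0.79), and in the right panel the NBH severe hypoxia fish lay at responses of 1.15 to 1.74.

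The level of miox was also set beside the size of each fish's overall response, a measure added after the data had been seen. The response was the mean log2 change, relative to the controls of the same population, over the 827 raised genes less that over the 651 lowered genes that were called in both SC contrasts, with miox left out. SC fish chose these genes, so their own scores are no independent measure. NBH fish scored 1.73, 1.96, 1.06, 1.88 and 1.96 in mild hypoxia and 1.48, 1.49, 1.74, 1.26 and 1.15 in severe hypoxia. Under mild hypoxia the fish with the smallest response, replicate 3, was also the one with the most miox. Across the 10 hypoxic NBH fish r was -0.12, and over all 15 NBH fish, controls included, it was -0.68. These values include the fish by which miox was chosen and are given as a description.

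The genes beside miox on chromosome 2 were read in the same way. Of the 4 annotated genes on either side, lmf2a, the nearest before it, had log2 fold changes of -0.41 in NBH mild hypoxia, -0.49 in NBH severe hypoxia, -0.40 in SC mild hypoxia and -0.08 in SC severe hypoxia, none past the test, and r = 0.07 with miox. LOC105933954, on the other side, was at -1.05, 0.03, -0.94 and -0.42, none past the test, with r = 0.41. In edgeR's quasi-likelihood test c2cd5 rose in SC severe hypoxia (0.91, adjusted p = 0.0174), and ppp6r2b rose there (1.33, adjusted p = 0.000419) and in NBH mild hypoxia (0.77, adjusted p = 0.0315), while fkbp4 passed in no contrast. The remaining neighbours, b4galnt3b, adm2b and LOC110369233, had 12, 20 and 0 reads over all libraries and were not tested.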

How the data were processed

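Single-end, strand-specific reads of 50 bp from 30 livers had been trimmed with Trimmomatic, aligned with STAR and counted per gene by the authors, who deposited raw counts. Each library is 1 fish. Genes kept by filterByExpr with the 6 groups (13609 genes, 99.9% of the counts) entered a model of group means with TMM scaling in edgeR 4.0.16 (R 4.3.3, limma 3.58.1) by the earlier quasi-likelihood method, with Benjamini-Hochberg adjustment within a contrast and a threshold of 0.05. CPM are on TMM-scaled totals, and log2 CPM has a prior count of 2. Standard errors were derived from the fold change and the F statistic of each test. Each gene had 1 estimate of spread shared by the 6 groups. Standard errors and intervals thus do not follow the spread of the groups compared alone.

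Named were miox, every inositol gene called in a contrast of hypoxia over control, and the synthesis and carrier genes. Also named were up to 4 of the largest changes among called genes of the other lists, and 4 neighbours a side. By correlation with miox, the 10 highest and the 5 most negative genes were taken, with the 5 nearest after removal of group means. The members and lists were chosen with earlier results of these data known. The study left out 1 NBH severe hypoxia fish as an outlier without naming it, and all 30 are used here. The 23 methylation samples were not analysed here, and no sequence was used. Some genes of the lists are counted but not reported here by name. Alternatives were DESeq2 1.42.0, no TMM factors, other filters, thinning, total count as a covariate, a replicate block, only the groups compared, and leaving out each fish. The overall response score was added after the data had been seen. Intervals cover counting error or spread among fish only. Steps across genes were tested on simulated data.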

Additional observations from a re-analysis of the deposited data

Results flagged for a closer look

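In groups of 5 fish, 1 fish can lie so far from the nearest of the others that its gap exceeds the 95% critical value of Dixon's test. With normally distributed values chance alone does this in about 1 in 20 groups. The values here were mostly CPM rather than log2 CPM, and the inositol genes were those already called. The number flagged is thus not to be set against that rate. Of the 108 groups examined, 16 did. For miox it was the highest SC mild hypoxia fish, replicate 5, at 479 CPM, and in log2 CPM no miox group was flagged. For marker sums these were the highest kidney sum in SC severe hypoxia (655 CPM), the highest liver sum in SC control (212710 CPM) and the highest pancreas sum in NBH severe hypoxia (704 CPM).

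Among inositol genes, ipmkb had 1 high fish in NBH mild hypoxia (25.1 CPM, replicate 3), NBH severe hypoxia (28 CPM, replicate 5) and SC severe hypoxia (20.3 CPM, replicate 5), and itpkcb had 1 in NBH mild hypoxia (23.3 CPM, replicate 3). The low-count gene inppl1b had 1 high fish, replicate 1, in NBH control (9.69 CPM), NBH severe hypoxia (9.91 CPM) and SC mild hypoxia (8.15 CPM). For bpnt1 the highest SC severe hypoxia fish was at 6.68 CPM, for pi4kaa the highest SC severe hypoxia fish was at 17.6 CPM, and for inpp5b the lowest NBH mild hypoxia fish was at 6.79 CPM. For pi4k2b the lowest SC severe hypoxia fish was at 39.9 CPM and the highest SC control fish was at 46.0 CPM.

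Of 180 interaction tests of listed genes in edgeR's quasi-likelihood fit, the lowest Benjamini-Hochberg adjusted p was 0.249.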

How the results depend on the processing

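The sign of the miox log2 fold change held in SC mild hypoxia over SC control (-3.91 to -2.39 with 1 fish left out), SC severe hypoxia over SC control (-2.56 to -1.50), SC severe over SC mild hypoxia (0.21 to 2.02), NBH severe hypoxia over NBH control (-6.67 to -5.44), NBH mild hypoxia over NBH control (-2.76 to -1.09), NBH severe over NBH mild hypoxia (-5.26 to -2.96) and NBH severe over SC severe hypoxia (-5.11 to -3.49). It turned in NBH mild over SC mild hypoxia, to -0.31 without NBH mild hypoxia replicate 3 (range -0.31 to 2.17), and in NBH control over SC control, to 0.0629 without SC control replicate 1 (range -0.57 to 0.0629). SC mild hypoxia passed the threshold at -2.78 with only the 2 groups fitted, at -2.81 in DESeq2 and at -3.91 without its replicate 5, and SC severe hypoxia at -1.89 with only the 2 groups fitted. Same-numbered fish did not deviate together on average (mean correlations -0.03 to 0.00, lowest -0.24 and highest 0.22). No pairing by number was thus seen, though it was not excluded. With a replicate block miox was at -2.99 in SC mild hypoxia (adjusted p = 0.0818 in edgeR) and -2.06 in SC severe hypoxia (adjusted p = 0.151), with no change of call. Counts of called list genes moved by over 1.5 times as follows. Without TMM factors, inositol genes numbered 6 in SC mild and 9 in NBH severe hypoxia, glucuronate and pentose genes 5 and 6, and non-heme iron genes 16 in NBH severe hypoxia. Without a filter, glucuronate and pentose genes numbered 0 in SC mild and 1 in NBH severe hypoxia. With total count as a covariate they numbered 2 in SC mild, 2 in SC severe, 1 in NBH severe and 2 in NBH mild hypoxia, inositol genes 3 in SC severe hypoxia, and non-heme iron genes 5 in NBH severe and 7 in NBH mild hypoxia. Thinned to the smallest library, glucuronate and pentose genes numbered 0 in SC mild and 1 in NBH severe hypoxia, inositol genes 1 in NBH severe hypoxia, and non-heme iron genes 5 in SC mild, 4 in NBH severe and 9 in NBH mild hypoxia. With only the 2 groups fitted, inositol genes numbered 5 in SC mild hypoxia, glucuronate and pentose genes 2 in SC mild, 8 in SC severe and 1 in NBH severe hypoxia, and non-heme iron genes 3 in NBH severe hypoxia. In DESeq2, glucuronate and pentose genes numbered 8 in SC severe hypoxia. With 1 fish left out, inositol genes numbered 3 to 6 in SC severe, 3 to 7 in NBH mild and 1 to 4 in NBH severe hypoxia. Glucuronate and pentose genes numbered 0 to 2 in SC mild hypoxia (0 without SC mild replicate 1, 3 or 4 or SC control 1, 3 or 5, and 2 without SC mild 2 or SC control 4), 4 to 8 in SC severe hypoxia (8 without SC control 4), 3 to 6 in NBH mild hypoxia (3 without NBH mild 5) and 1 to 5 in NBH severe hypoxia (1 without NBH severe 1, 3 or 4 or NBH control 2, 3 or 5, and 5 without NBH severe 5). Non-heme iron genes numbered 5 to 10 in SC mild hypoxia (5 without SC control 5) and 2 to 9 in NBH severe hypoxia (2 without NBH severe 3, 3 without NBH control 1, 4 without NBH control 2 or 3, and 5 without NBH control 5). The cause of these moves was not tested. With 5 fish a group and a wide spread within groups, the 95% intervals of miox span about 4 log2 units.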
